A study of Rattus norvegicus with 12 samples.

Results

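The PDGF ligands and receptors are 6 genes of the 25620 counted in wound tissue of diabetic rats, namely the ligand genes Pdgfa, Pdgfb, Pdgfc, and Pdgfd and the receptor genes Pdgfra and Pdgfrb. They were taken from the tables by their gene symbols, with no threshold on their values, and all 6 were counted in each library. The family was chosen with earlier results of these data known. The animals of every group, the control included, were male SD rats made diabetic with streptozotocin (STZ), a toxin of pancreatic beta cells, and each carried a full-thickness punch wound on the back. The control wounds received saline, the d-SMG wounds the dried mucus gel of the snail *A. fulica*, the s-GAG wounds (GAG in the labels) the glycosaminoglycan of that mucus, and the Alg wounds an alginate dressing as the positive control. RNA of the tissue labelled skin was sequenced as stranded, rRNA-depleted libraries on day 3, 7, and 14. There was 1 library for each of the 4 groups on each of the 3 days, 12 libraries in total, so that no group had a replicate within a day. Nothing in the labels says whether a library came from 1 animal or from pooled animals. The rats were obtained as young adults.

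PDGFs (platelet-derived growth factors) are secreted dimers that bind and pair receptor tyrosine kinases on mesenchymal cells. The A and B chains leave the cell in active form after processing by furin-like proteases, whereas the C and D chains carry an extra domain that must be cut off outside the cell, by tissue plasminogen activator in the case of PDGF-CC and by urokinase or matriptase in the case of PDGF-DD. Receptor alpha is carried by fibroblasts and their progenitors, and receptor beta by pericytes, vascular smooth muscle cells, and fibroblasts. In wounds, platelets, macrophages, endothelial cells, and keratinocytes release ligands, and PDGF draws fibroblasts and mural cells into the granulation tissue.

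The libraries held 13748887 to 38302461 reads on genes. A pair of libraries stood apart from the others. The d-SMG library of day 3 correlated with the other libraries at a median r of 0.86 and the s-GAG library of day 14 at 0.85, against 0.92 to 0.95 for the other libraries. In d-SMG on day 3 the 11 keratinocyte markers summed to 43.99 CPM (read counts scaled to a common library total with TMM, the trimmed mean of M values), against 4325 to 41770 in the other libraries, so that the epidermal markers of skin were nearly absent there, while the 12 skeletal muscle markers were at their highest with 205500 CPM. In s-GAG on day 14 the mean gene length per read was 2833 bases, against 3995 to 5487 in the others, and genes under 1500 bases lay above their own mean over the libraries by a median of 1.14 on the log2 scale, whereas genes over 9000 bases lay at -0.79. Several of the PDGF values that rest on these libraries, but not all, are given with and without them, or with the length trend subtracted. The control libraries had a smaller length trend, in different directions. Genes over 9000 bases lay at -0.32 in control on day 3, 0.25 on day 7, and 0.37 on day 14. Each ratio to control takes in the trend of its control library. The part that these differences had in the PDGF values was not tested. Scaling by library size alone in place of TMM shifted all log2 ratios to control by -0.43 in d-SMG and 0.14 in s-GAG and Alg on day 3, 0.36 in d-SMG on day 7, and 0.19 in d-SMG and -0.45 in s-GAG on day 14, and by at most 0.1 in size otherwise.

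Compared per length, Pdgfa had the highest median level of the family and Pdgfd the lowest. The median FPKM (fragments scaled for gene length and library total, as deposited) over the 12 libraries was 21.63 for Pdgfa (11.99 to 47.46), 14.07 for Pdgfrb (7.8 to 26.26), and 11.275 for Pdgfra (1.37 to 34.56). The lower ligands had a median FPKM of 4.105 for Pdgfb (2.38 to 7.69), 2.155 for Pdgfc (0.98 to 5.35), and 1.085 for Pdgfd (0.2 to 2.9). Each neighbour in this order overlapped the next in its range over the libraries, whereas Pdgfa and Pdgfrb did not overlap Pdgfb. Within a library, Pdgfa had the highest FPKM of the family in 8 libraries, Pdgfra in 3 (control and d-SMG on day 7, Alg on day 14), and Pdgfrb in 1 (control on day 14). All 4 libraries of day 3 had the same order, Pdgfa, Pdgfrb, Pdgfra, Pdgfb, Pdgfc, and Pdgfd. Pdgfc exceeded Pdgfd in 11 of 12 libraries, the exception being control on day 7, where the ratio of their FPKM was 0.617.

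**Figure D1:**
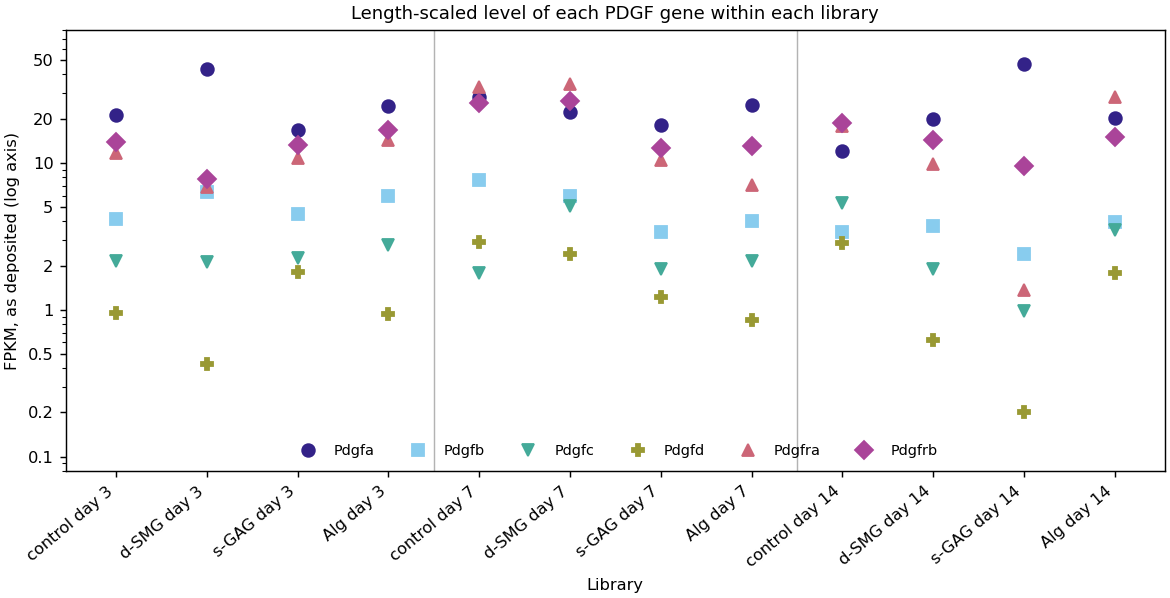
FPKM of the 6 PDGF genes on a log axis in each of the 12 libraries, ordered by day and group, with 1 point per gene and library. Pdgfa is the highest point in 8 libraries, Pdgfd is the lowest point in every library but control on day 7, and in s-GAG on day 14 Pdgfra drops to 1.37 FPKM, below Pdgfb.

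The balance between ligand and receptor differed widely between libraries. The ratio of Pdgfa to its receptor gene Pdgfra was 34.6 by FPKM in s-GAG on day 14 and 6.38 in d-SMG on day 3, and lay between 0.64 and 3.47 in the other 10 libraries. The ratio of Pdgfra to Pdgfrb ranged from 0.144 in s-GAG on day 14 to 1.86 in Alg on day 14, and from 0.543 to 1.86 without the pair of libraries that stood apart. The 4 ligands made up 36.9 to 82.4% of the FPKM of the family, and 36.9 to 61.1% without that pair. Pdgfa accounted for 50.8 to 93% of the ligand FPKM, with its lowest share in control on day 14.

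Pdgfa encodes the A chain, which binds receptor alpha. Its level was 60.5 CPM in control, 168 in d-SMG, 44.1 in s-GAG, and 66.1 in Alg on day 3, and 82.3, 51.6, 51.6, and 76.7 CPM in the same order on day 7. On day 14 it was 34.4 CPM in control, 51.5 in d-SMG, 181 in s-GAG, and 53.6 in Alg. Pdgfa was thus high in 2 libraries, d-SMG on day 3 (2093 reads) and s-GAG on day 14 (2656 reads), which are those that stood apart, and lay between 34.4 and 82.3 CPM in the others. Its log2 ratio to the control of the day was 1.48 (95% interval of the counting error 1.38 to 1.57) in the former and 2.39 (2.27 to 2.52) in the latter. Subtraction of the length trend gave 2.19 for s-GAG on day 14, and scaling by library size alone gave 1.05 and 1.95. The control library of day 14 was the lowest of all 12 for Pdgfa, and each of the other groups was above it on that day.

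Pdgfb encodes the B chain, which binds both receptors and is the endothelial signal that recruits pericytes. It stood at 11.7 CPM in control, 24.0 in d-SMG, 11.6 in s-GAG, and 15.7 in Alg on day 3, and at 22.2, 13.7, 9.61, and 12.3 CPM on day 7. By day 14 the 4 libraries were close together, with 9.62 CPM in control, 9.44 in d-SMG, 8.93 in s-GAG, and 10.3 in Alg. The 4 libraries of day 14 lay below all those of day 3, and s-GAG on day 7 was the only library before day 14 under 10.3 CPM. The d-SMG library of day 3 was above its control by 1.04 on the log2 scale (0.80 to 1.28), or 0.61 with library size alone, and each of the other groups was below control on day 7, with -1.21 (-1.43 to -0.99) in s-GAG.

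Pdgfc encodes a ligand for receptor alpha that is released in latent form. Day 3 gave 6.89 CPM in control, 9.01 in d-SMG, 6.59 in s-GAG, and 8.28 in Alg, with little difference between groups. On day 7 d-SMG was the highest with 13.2 CPM, against 5.87 in control, 6.11 in s-GAG, and 7.46 in Alg. On day 14 control, the lowest group of day 7, was the highest with 17.1 CPM, against 5.41 in d-SMG, 4.16 in s-GAG, and 10.3 in Alg. The d-SMG library was accordingly above control on day 7 by a log2 ratio of 1.17 (0.82 to 1.54) and below it on day 14 by -1.66 (-2.02 to -1.32), where s-GAG had -2.04 (-2.46 to -1.65). The value of d-SMG on day 7 rested on 287 reads against 86 in control.

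Pdgfd encodes the ligand of receptor beta that requires urokinase or matriptase. It had the fewest reads of the family, from 16 to 244 per library. Its level on day 3 was 3.95 CPM in control, 2.41 in d-SMG, 6.94 in s-GAG, and 3.67 in Alg. The control library was the highest on both later days, with 12.4 CPM on day 7 against 8.15, 5.10, and 3.86 in d-SMG, s-GAG, and Alg, respectively, and 11.9 CPM on day 14 against 2.33, 1.09, and 6.83. Pdgfd was below the control of the day in 8 of 9 treated libraries, s-GAG on day 3 being the exception, and that of Alg on day 3 turned from -0.10 (-0.56 to 0.35) to 0.04 with library size alone. The log2 ratio was -3.44 (-4.28 to -2.72) in s-GAG on day 14, from 16 reads against 244, and -3.17 with the length trend subtracted. It was -2.35 (-2.89 to -1.85) in d-SMG on day 14, -1.68 (-2.14 to -1.25) in Alg on day 7, and -1.28 (-1.58 to -0.99) in s-GAG on day 7.

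**Figure D2:**
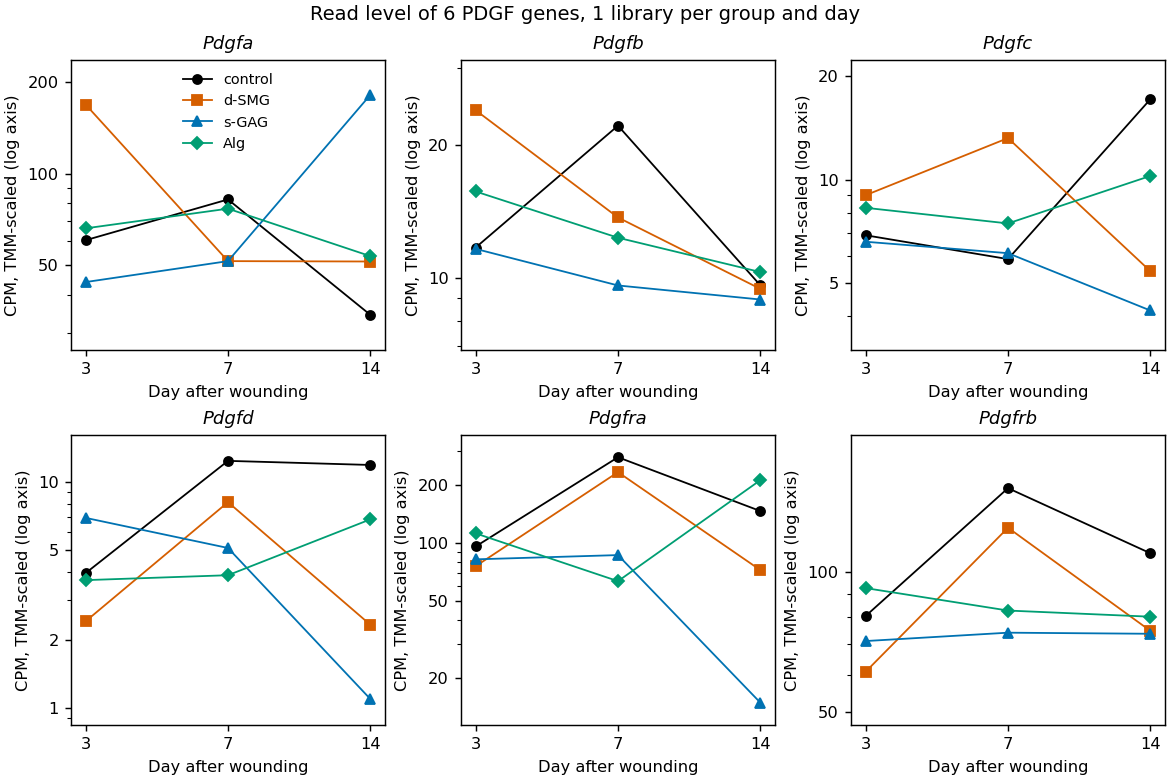
CPM (TMM-scaled, log axis) of each PDGF gene against the day after wounding, with 1 point for each library and lines joining the days of a group. Control (black) is the highest of the 4 groups for every gene but Pdgfc on day 7 and for Pdgfc, Pdgfd, and Pdgfrb on day 14, and Pdgfa stands out at 168 CPM in d-SMG on day 3 and 181 CPM in s-GAG on day 14.

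Pdgfra encodes receptor alpha, the receptor of dermal fibroblasts, and had the widest range of the family. On day 3 the groups were close, with 96.0 CPM in control, 75.9 in d-SMG, 82.4 in s-GAG, and 112 in Alg. On day 7 control and d-SMG formed a high pair with 277 and 232 CPM, whereas s-GAG and Alg had 86.7 and 63.6 CPM. On day 14 the level was 146 CPM in control, 72.5 in d-SMG, 15 in s-GAG, and 211 in Alg, so that Alg was the lowest group on day 7 and the highest on day 14. The log2 ratio to control was -1.68 (-1.74 to -1.61) in s-GAG and -2.12 (-2.23 to -2.02) in Alg on day 7. It was -1.01 (-1.11 to -0.91) in d-SMG and -3.29 (-3.49 to -3.09) in s-GAG on day 14, the latter from 220 reads against 2996. With the length trend subtracted the day 14 values became -0.69 and -2.33. Pdgfra, at about 8334 bases, is the longest gene of the family by the length that counts and FPKM imply. The trend subtracted from Pdgfra on day 14 was 0.27 in control, -0.06 in d-SMG, and -0.69 in s-GAG on the log2 scale. The ratio of Alg on day 3 turned from 0.23 to -0.06 with the length trend subtracted.

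Pdgfrb encodes receptor beta, the receptor of pericytes and smooth muscle, and had the narrowest range. Its level was 80.5 CPM in control, 61.1 in d-SMG, 71.2 in s-GAG, and 92.5 in Alg on day 3. On day 7 it was 152, 125, 74.2, and 82.8 CPM in the same order, and on day 14 it was 110, 74.8, 73.8, and 80.3 CPM. Control was the highest on day 7 and 14, and the s-GAG libraries hardly differed between the days with TMM scaling. The TMM factors of the s-GAG libraries were 1.098, 1.014, and 0.744 on day 3, 7, and 14. The length trend of Pdgfrb in them was 0.10, 0.10, and -0.49 on the log2 scale. Their levels therefore lie further apart with library size alone or with the length trend subtracted. Pdgfrb was below the control of the day in 8 of 9 treated libraries, by a log2 ratio between -1.03 (s-GAG on day 7) and -0.18 (s-GAG on day 3), Alg on day 3 being the exception with 0.20. The ratio of s-GAG on day 14 turned from -0.58 to 0.08 with the length trend subtracted, and that of d-SMG on day 7 from -0.28 to 0.08 with library size alone, as did that of Pdgfra in d-SMG on day 7, from -0.26 to 0.10.

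Over the 12 libraries, the highest CPM exceeded the lowest by 18.5-fold for Pdgfra, 11.4-fold for Pdgfd, 5.26-fold for Pdgfa, 4.12-fold for Pdgfc, 2.69-fold for Pdgfb, and 2.48-fold for Pdgfrb. Without the pair of libraries that stood apart these ranges were 4.36, 5.33, 2.39, 3.17, 2.35, and 2.13-fold. The SD of the log2 level was 1.11 for Pdgfra and 1 for Pdgfd, against a median of 0.58 over 16110 genes, which put them at percentile 86.4 and 82.5. Pdgfa had an SD of 0.72, which was 0.37 without the pair of libraries that stood apart. Pdgfc (0.56) was near that median, whereas Pdgfb (0.47) and Pdgfrb (0.38) were at percentile 35.9 and 22.8.

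The comparison of each treated library with the control library of its day asked which PDGF genes differed between dressed and saline-treated wounds at a given stage. Of 54 values, 16 passed 2-fold, 4 higher and 12 lower than control. These were 6 of 18 for d-SMG, 8 of 18 for s-GAG, and 2 of 18 for Alg. Of all gene values over the 3 days, 21.9%, 36.4%, and 21.8% passed in the same order. There was no test, the 3 comparisons of a day share their control library, and the intervals cover the counting error only. For d-SMG, Pdgfa and Pdgfb were higher on day 3, where 24% of all genes with at least 10 reads passed 2-fold, 9.44% higher and 14.5% lower, and Pdgfc was higher on day 7, where these shares were 13.1%, 6.72%, and 6.37%. On day 14 Pdgfc, Pdgfd, and Pdgfra were lower past 2-fold in d-SMG and none was higher past 2-fold. On that day 28.6% of genes passed, 16% lower and 12.6% higher.

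For s-GAG, no PDGF gene passed 2-fold on day 3, where 25.5% of genes passed, 14.5% higher and 10.9% lower. On day 7 Pdgfb, Pdgfd, Pdgfra, and Pdgfrb were lower in s-GAG, 4 of 6, where 26% of all genes passed, 12.5% lower and 13.5% higher. On day 14 Pdgfc, Pdgfd, and Pdgfra were lower and Pdgfa higher, but 30% of all genes were lower and 27.7% higher in that library, so that 4 of 6 past 2-fold was near the 57.8% of all genes. For Alg, no member passed on day 3, where 20% of genes did, 11.5% higher and 8.57% lower, or on day 14, where 21.2% did, 9.1% higher and 12.1% lower. On day 7 Pdgfd and Pdgfra were lower in Alg, where 24.2% of genes passed, 11.7% lower and 12.5% higher. Of the 16 values, 14 also passed 2-fold in the same direction with the length trend subtracted, those of Pdgfra in d-SMG on day 14 and Pdgfrb in s-GAG on day 7 (-0.99) being the exceptions, and 13 passed with library size alone, where Pdgfb in d-SMG on day 3 was a further exception. Library size alone also brought 2 further values past 2-fold, Pdgfd in d-SMG on day 3 (-0.71 to -1.13) and Pdgfrb in s-GAG on day 14 (-0.58 to -1.02), 15 in total.

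**Figure D3:**
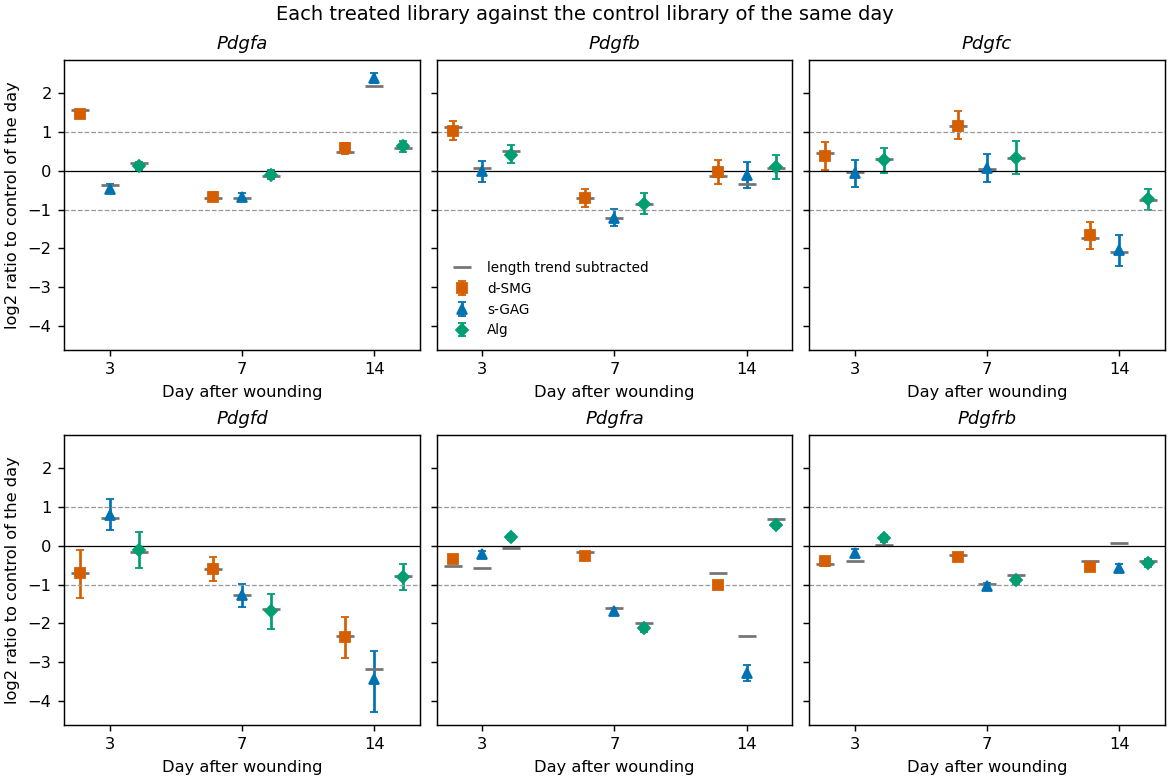
Log2 ratio of each treated library to the control library of the same day for the 6 PDGF genes, with bars for the 95% interval of the counting error, grey dashes for the ratio after subtraction of the length trend, and dashed lines at 2-fold. Of the 54 points, 16 lie beyond the dashed lines, 6 for d-SMG, 8 for s-GAG, and 2 for Alg. Of all gene values over the 3 days, 21.9%, 36.4%, and 21.8% passed 2-fold in the same order. The lowest points are Pdgfd (-3.44) and Pdgfra (-3.29) in s-GAG on day 14, the latter with its grey dash at -2.33.

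Treatments were then compared over the 3 days with the quasi-likelihood test of edgeR, with the days as the only replicates. Any response to a dressing that differed between the days entered the spread in this fit, and the p-values measure only the spread between these libraries. No PDGF gene was called for d-SMG, s-GAG, Alg, or all dressings together against control, and neither was any other of the 16110 genes tested (0% called in each comparison). At an unadjusted p under 0.05 there were 218, 1492, 502, and 778 genes, respectively, with no member among them. DESeq2 called 9, 288, 88, and 136 genes and limma on log2 FPKM called 0, again without a PDGF gene.

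The receptor genes had fitted changes below 0 for every dressing. For Pdgfrb the log2 fold change was -0.60 (SE 0.31, 95% interval -1.29 to 0.10) for s-GAG, -0.40 (-1.09 to 0.29) for d-SMG, and -0.37 (-1.06 to 0.33) for Alg. All dressings together gave -0.46 (SE 0.25, -1.01 to 0.10) with an adjusted p of 0.9579 by edgeR, and the fitted value stayed between -0.61 and -0.32 over 27 alternatives, with adjusted p-values of 0.5484 or more. For Pdgfra the value was -1.47 (SE 0.75, -3.15 to 0.20) for s-GAG, with an adjusted p of 0.5666 by edgeR, and -0.51 (-2.12 to 1.09) for d-SMG and -0.16 (-1.81 to 1.48) for Alg. The s-GAG value of Pdgfra was -0.88 without s-GAG on day 14 and -2.20 without s-GAG on day 3, and over all alternatives it lay between -2.30 and -0.88. The 95% intervals included 0 for every PDGF gene in every comparison.

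Among the ligands, Pdgfd had fitted log2 fold changes of -1.23 (SE 0.74, -2.88 to 0.42) for d-SMG, -1.04 (-2.76 to 0.68) for s-GAG, and -0.87 (-2.49 to 0.74) for Alg, and of -1.05 (SE 0.57, -2.32 to 0.23) for all dressings, with an adjusted p of 0.9579 by edgeR. The s-GAG value was -0.34 without s-GAG on day 14 and -2.04 without s-GAG on day 3. Over all alternatives Pdgfd lay between -2.22 and -0.21 for s-GAG, -1.89 and -0.56 for d-SMG, and -1.60 and -0.24 for Alg. Pdgfa had positive values of 0.54 (-1 to 2.09) for d-SMG and 0.65 (-0.95 to 2.25) for s-GAG, and these turned to -0.32 without d-SMG on day 3 and to -0.52 without s-GAG on day 14, respectively. Pdgfb was at 0.08 (-0.74 to 0.90), -0.50 (-1.31 to 0.32), and -0.17 (-0.98 to 0.65) for d-SMG, s-GAG, and Alg, and Pdgfc at -0.07 (-1.22 to 1.08), -0.78 (-1.93 to 0.36), and -0.18 (-1.30 to 0.94). Apart from Pdgfb for d-SMG and Alg, every interval of a single dressing reached 2-fold in at least 1 direction.

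The days were compared over the 4 groups in the same way, to see how the family moved as the wounds aged. No PDGF gene was called between day 7 and 3, day 14 and 3, or day 14 and 7, nor was any other gene by edgeR (0%), with 292, 798, and 502 genes at an unadjusted p under 0.05, and DESeq2 called 0, 39, and 7 genes, no member among them, and limma 0. Pdgfb was lower on day 14 than on day 3 by a fitted -0.68 (SE 0.31, -1.39 to 0.02), with an adjusted p of 0.8821 by edgeR, and stayed between -0.91 and -0.44 over 28 alternatives, with adjusted p-values of 0.4998 or more. Day 7 exceeded day 3 by a fitted 0.46 (-0.14 to 1.07) for Pdgfrb, 0.72 (-0.71 to 2.15) for Pdgfra, and 0.69 (-0.76 to 2.14) for Pdgfd, with adjusted p-values of 0.9988 by edgeR. Pdgfa and Pdgfc had fitted day differences between -0.26 and 0.17.

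**Figure D4:**
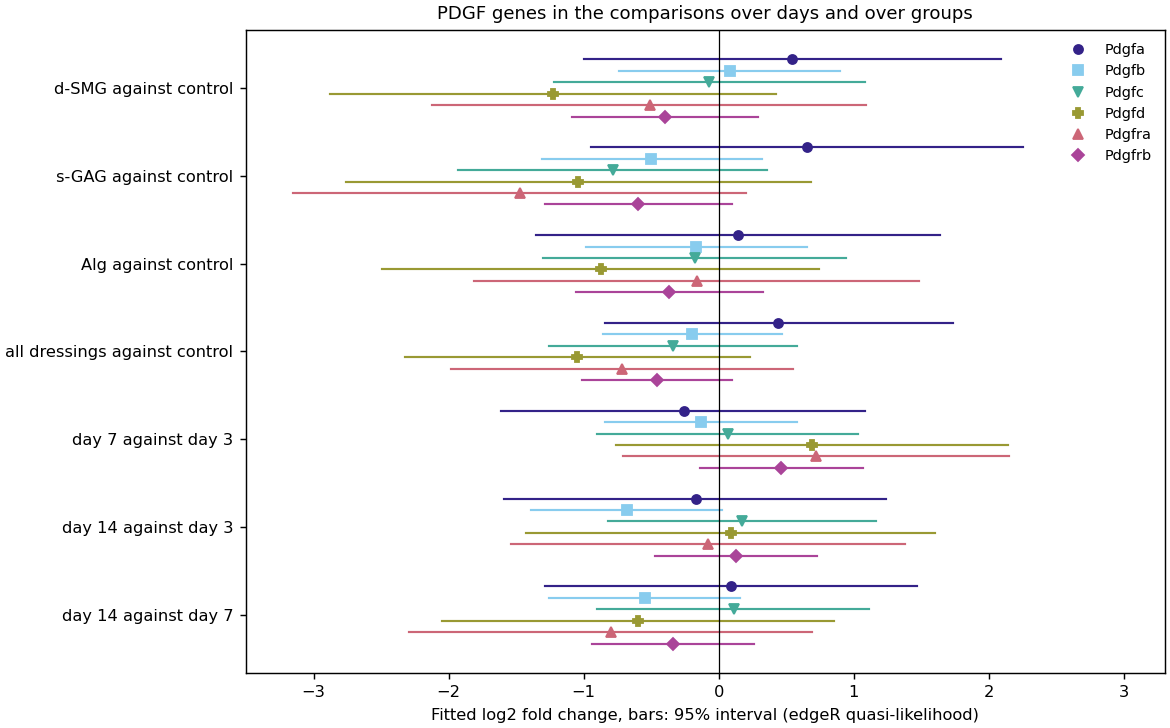
Fitted log2 fold change (points) and 95% interval (lines) of the 6 PDGF genes in the 7 comparisons of the quasi-likelihood test. Every line crosses 0, and those nearest to lying on 1 side are Pdgfb for day 14 against day 3 (-1.39 to 0.02) and Pdgfrb for s-GAG and for all dressings against control (upper ends at 0.10).

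The pathway around the receptors was described with lists of its other genes, chosen by known function. No gene of any list was called in any comparison by edgeR. Of 10 genes that process or bind the ligands, 9 had a fitted value below 0 for all dressings, with a median of -0.36, against -0.02 over all genes tested. The exception was St14, which encodes matriptase, with 0.89 (SE 0.49, unadjusted p 0.1001, edgeR) for all dressings and 1.75 (SE 0.59, unadjusted p 0.01452, edgeR) for s-GAG. For s-GAG, 9 of the 10 were lower with a median of -0.64, among them Plau, the gene of urokinase, at -0.98 (SE 0.44). Plau was also at -1.06 (SE 0.39) on day 14 against day 3, and Plat, the gene of tissue plasminogen activator, at 0.83 (SE 0.35) on day 7 against day 3 and -1.15 (SE 0.36) on day 14 against day 7. Sparc, which encodes a matrix protein that binds PDGF, had -0.66 (SE 0.49) for all dressings. The summed level of the list ran from 1336 CPM in d-SMG on day 3 to 5753 CPM in control on day 7.

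The 20 genes that carry the signal from the receptors, from adaptors to kinases, varied less, with a summed level of 1692 to 2130 CPM. For all dressings 16 of them were below 0 with a median of -0.15, among them the kinase gene Akt1 at -0.39 (SE 0.24), while the small GTPase gene Hras was at 0.89 (SE 0.47). For s-GAG the adaptor gene Shc1 was at -1.12 (SE 0.46) and Hras at 1.61 (SE 0.58). Of 15 genes that restrain the receptors, 8 were higher and 7 lower for all dressings, with a median of 0.02. Among these, the phosphatase gene Ptprj, whose product removes phosphate from PDGF receptor beta, was at -0.72 (SE 0.29, unadjusted p 0.0334, edgeR) for all dressings and -1.03 (SE 0.37) for s-GAG, and Ptprk, another receptor phosphatase gene, at 0.36 (SE 0.22) and 0.68 (SE 0.26). Ptprk was at 0.84 (SE 0.23, unadjusted p 0.004775, adjusted p 0.8821, edgeR) on day 14 against day 3.

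Markers of the cells that carry the receptors or release the ligands were set beside these values. In bulk tissue, fewer cells of a type and less RNA per cell cannot be told apart. On day 3, when Pdgfra hardly differed between groups, the 12 fibroblast markers summed to 8187 CPM in control, 6278 in d-SMG, 21880 in s-GAG, and 10130 in Alg. They summed to 45340 CPM in control and 27780 in d-SMG on day 7, the 2 libraries with the highest Pdgfra, and to 8697 in s-GAG and 12150 in Alg on that day. On day 14 they summed to 32070 CPM in control, 17880 in d-SMG, 10170 in s-GAG, and 16290 in Alg, where Alg had the highest Pdgfra. For all dressings 10 of the 12 had fitted values below 0, with a median of -0.72, and Fap, a protease gene of activated fibroblasts, was at -1.19 (SE 0.43). The 12 mural cell markers had a median of -0.12 for all dressings, with 7 below 0, beside the -0.46 of Pdgfrb. The list holds Des, the gene of desmin, which skeletal muscle also expresses. In d-SMG on day 3, where Pdgfrb was at its lowest and the muscle markers at their highest, the list summed to 17510 CPM, of which Des made up 14410. Without Des the sum was 3102 CPM there, against 3122 in control on day 3, and 2181 to 6244 CPM over the 12 libraries. No fibroblast or mural marker was at 0 in any library.

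Of the ligand sources, all 12 macrophage markers were below 0 for all dressings, with a median of -0.82 and Aif1 at -1.07 (SE 0.33), and their sum ran from 718.1 CPM in s-GAG on day 14 to 4646 CPM in d-SMG on day 7. Of the 12 endothelial markers, 11 were below 0 for all dressings, with a median of -0.38, and all 12 were below 0 on day 14 against day 3, with a median of -0.61, beside the -0.68 of Pdgfb. Of 9 platelet markers in the table only 3 had enough reads for the test, the platelet chemokine gene Pf4 was at -0.76 (SE 0.46) for all dressings, and Ppbp, Gp9, Gp1ba, and Gp5 were at 0 to 2 reads in each library. The keratinocyte markers had a median of 0.81 for all dressings, with 8 of 11 above 0, and their sum was at its lowest and highest, 43.99 and 41770 CPM, in the 2 libraries where Pdgfa was highest. The skeletal muscle markers had a median of 0.20 and the adipocyte markers one of 0.58 for all dressings, with Retn, the gene of resistin, at 2.18 (SE 0.54). The part of these cell types in the PDGF values was not tested.

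Across the 12 libraries, Pdgfd and Pdgfra varied together. The log2 levels of the 2 genes had a Pearson's r of 0.87 (permutation p 0.00034, adjusted 0.0051) and a Spearman's rho of 0.81 (permutation p 0.00233, adjusted 0.0349), two-sided with 100000 permutations and adjustment over the 15 pairs of members. The r was 0.68 without the 2 libraries farthest from the median of Pdgfd (control on day 7, s-GAG on day 14), 0.75 without the pair that stood apart, and 0.81 with the length trend subtracted. A day holds 4 libraries, too few for a value within days. The permutations shuffled all 12 libraries without regard to group and day. Shifts of both genes with a group or a day therefore enter the r and its p. An association beyond such shifts was not tested. No other pair passed the adjustment. Pdgfd and Pdgfrb had an r of 0.70 and a rho of 0.59 (permutation p 0.0109 and 0.046, adjusted 0.071 and 0.23). Their r was 0.69 without the pair that stood apart and 0.36 with the length trend subtracted. Pdgfa and Pdgfd had an r of -0.68 and a rho of -0.43 (permutation p 0.0142 and 0.161, adjusted 0.071 and 0.345). Their r was -0.23 without the pair of libraries that stood apart. Pdgfra and Pdgfrb had an r of 0.66 and a rho of 0.71 (permutation p 0.0227 and 0.0133, adjusted 0.085 and 0.1), with an r of 0.80 without the pair that stood apart and 0.37 with the length trend subtracted. The r of -0.57 between Pdgfa and Pdgfra (rho -0.23, permutation p 0.0633 and 0.47, adjusted 0.136 and 0.503) became 0.07 without the 2 libraries that stood apart, on which it rested.

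**Figure D5:**
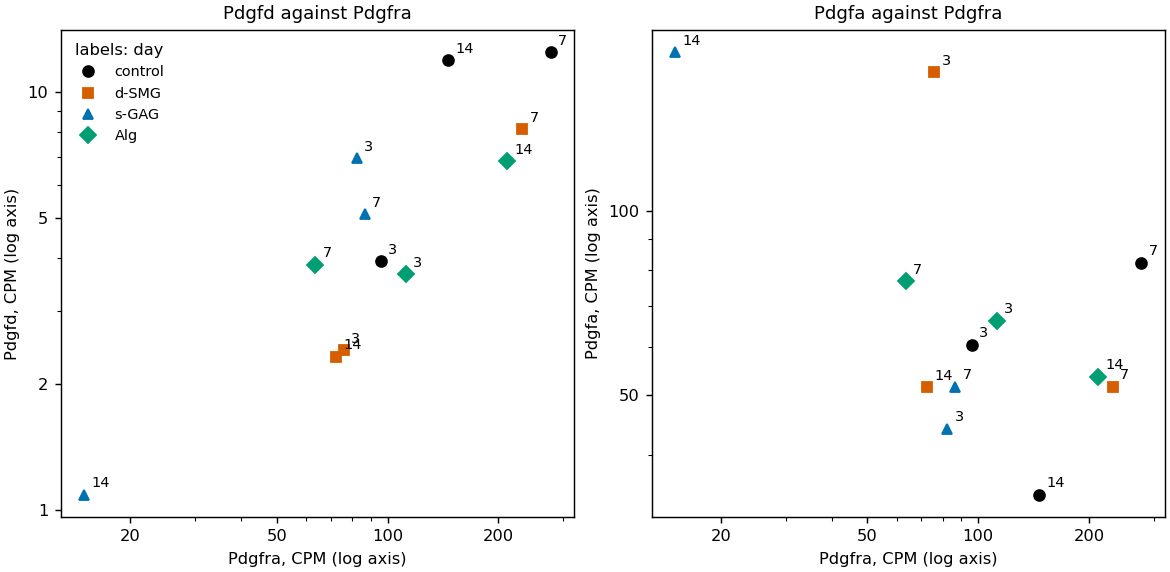
CPM of Pdgfd (left) and Pdgfa (right) against that of Pdgfra on log axes, with 1 point per library, the group by colour and shape, and the day as a number. On the left the points lie along a rising band from s-GAG on day 14 (15 and 1.09 CPM) to control on day 7 (277 and 12.4 CPM), and on the right s-GAG on day 14 and d-SMG on day 3 sit apart at 181 and 168 CPM of Pdgfa.

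The promoter sequences of these 3 genes are shown because Pdgfd and Pdgfra varied together while Pdgfa did not follow them. They are the 250 bases before the transcription start by RefSeq on the build GRCr8, 5′ to 3′ on the strand of the gene, and RefSeq sequences were at hand for 5 of the 6 members, all but Pdgfrb. The positions refer to GRCr8 only, since the build of the deposited tables is not given in the sources used here. Capitals mark the letters of a GC box (GGGCGG on either strand) in Pdgfa and Pdgfd. In Pdgfra they mark TGAATCA, a match to TGANTCA, a loosened form of the AP-1 site that allows any base at its centre.
Pdgfra (chr14:33408517-33408766, minus strand): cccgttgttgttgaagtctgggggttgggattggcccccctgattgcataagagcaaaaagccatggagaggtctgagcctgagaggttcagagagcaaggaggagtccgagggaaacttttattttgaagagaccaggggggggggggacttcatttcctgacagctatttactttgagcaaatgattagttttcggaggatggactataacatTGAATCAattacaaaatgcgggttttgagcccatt
Pdgfd (chr8:11773258-11773507, plus strand): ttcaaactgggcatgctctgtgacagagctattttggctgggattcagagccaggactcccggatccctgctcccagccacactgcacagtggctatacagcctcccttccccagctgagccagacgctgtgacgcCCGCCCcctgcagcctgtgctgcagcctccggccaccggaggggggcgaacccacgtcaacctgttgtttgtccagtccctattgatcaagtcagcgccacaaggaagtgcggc
Pdgfa (chr12:20759116-20759365, plus strand): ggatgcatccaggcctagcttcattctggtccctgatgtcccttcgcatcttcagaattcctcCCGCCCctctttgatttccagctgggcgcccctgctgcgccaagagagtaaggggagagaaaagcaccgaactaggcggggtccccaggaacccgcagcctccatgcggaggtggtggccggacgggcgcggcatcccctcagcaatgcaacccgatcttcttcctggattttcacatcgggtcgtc

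The match to TGANTCA in Pdgfra began 35 bases before the start (position -35), and 6.34% of 33469 rat promoters of the same length hold this loosened pattern. The GC box began at position -114 in Pdgfd and -187 in Pdgfa, and at -207 in Pdgfb, and 30.5% of the promoters hold it. Pdgfc held none of the motifs searched. No member held GCGNGGGCG, the letters bound by EGR factors, which can overlap a GC box and occur in 4.29% of promoters, nor TATAAA (12.9%) or CACGTG (5.59%), each searched on both strands. The GC content of the window was 47.2% for Pdgfra, 61.6% for Pdgfd, and 60.8% for Pdgfa. A match is a description of the letters, and the data hold no measure of binding.

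The genes whose log2 levels over the 12 libraries were most like those of a member were found among 10538 genes with a mean of at least 5 CPM. For Pdgfra they included Mknk1 and Dab2, each with an r of 0.98, and for Pdgfd they were Rnf169 (0.98), Mxd4 (0.96), and Sh3pxd2b (0.95). Pdgfb was most like Flt1 (0.94), which encodes an endothelial VEGF receptor, followed by Ehd3 (0.92) and Rftn1 (0.91), and Pdgfrb was most like Cul7 (0.95), Copg1 (0.94), and Nagk (0.94). These 11 genes kept an r of at least 0.89 without the pair of libraries that stood apart. The genes nearest to Pdgfa were Pgk1, a glycolytic enzyme gene, with an r of 0.95, Selenow (0.92), and Mrpl40 (0.92), with 0.80, 0.69, and 0.64 without that pair, and those nearest to Pdgfc were Adamtsl1 (0.87), Mindy2 (0.85), and Nadk2 (0.83). All genes of a library share its depth and its length trend, so that these values are descriptions.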

How the data were processed

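RNA sequencing of wound tissue gave 12 libraries, 1 for each of 4 groups and 3 days, and the groups were taken from the labels. The authors deposited read counts per gene as whole numbers without normalization, and FPKM values that the authors had scaled by gene length and library total. The tools listed in the submitters' processing notes are bcl2fastq, FastQC, TopHat2, and edgeR, without versions, and the genome build and the counting rule are not given in the sources used here. Each table holds 1 further column of values that matches no described sample and was not used. The members and the gene lists were chosen with earlier results of these data known.

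Genes were tested with edgeR 4.0.16 in R 4.3.3 (TMM, filterByExpr, quasi-likelihood test, day and treatment as terms, FDR 0.05 over 16110 genes), and the steps were tested on simulated data. Single days were compared by the log2 ratio of CPM (prior count 0.125) with exact Clopper-Pearson 95% intervals, which cover the counting error only, and a threshold of 2-fold among genes whose reads summed to 10 or more over the pair. DESeq2 1.42.0, limma 3.58.1, other scalings, filters, and subsets of libraries served as alternatives. The length trend was fitted to the deviation of each library from the gene means against the gene length implied by counts and FPKM, an alternative chosen after seeing the data. Correlations used log2 CPM with a prior count of 2. Those between members were computed with scipy 1.17.1, and their p-values came from permutations of the libraries written for this purpose. The genes named are the 6 members, in each list the called genes or, with none called, the 2 with the smallest unadjusted p, and for each member the 3 genes with the highest r, of which 1 is not reported here. Same-day libraries had correlations of -0.40 to 0.29 in their deviations from the group means. Libraries of different days were not set beside them, so that whether the day pairs the libraries was not tested.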

Additional observations from a re-analysis of the deposited data

How the results depend on the processing

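No PDGF gene was called in any comparison over days or groups under any of the alternatives run, including DESeq2, limma on log2 FPKM, and the fit without the replicate block (the day or the group), where 0 members were called in each comparison. Over all genes, where the quasi-likelihood test called 0, the same test called 177 for s-GAG and 18 for all dressings without d-SMG on day 3 and s-GAG on day 14, 66 for s-GAG without d-SMG on day 3 alone, 12 for s-GAG and 9 for Alg with only the libraries compared, and 1 for s-GAG without a low-count filter or without Alg on day 7. The limits are 1 library per group and day, 16 to 5046 reads per member and library, and counting intervals that leave out the spread between animals. The numbers of values past 2-fold depended on the settings. The share of all gene values over the 3 days stands in brackets. For d-SMG, 6 (21.9%) became 10 at 1.5-fold (39.1%) and 2 at 3-fold (11.1%), and an edgeR exact test with an assumed BCV (biological coefficient of variation) of 0.2 or 0.3 called 3 (11.8%) or 1 (4.7%). For s-GAG, 8 (36.4%) became 5 with log2(FPKM + 1) (17%), 5 at 3-fold (21%), and 4 with a BCV of 0.3 (14.6%), all 4 on day 14, where 33% of genes were called. For Alg, 2 (21.8%) became 7 at 1.5-fold (40.6%) and 1 with a BCV of 0.3 (3.29%). The common BCV estimated in the fit of treatments over the 3 days was 0.5, which also takes in responses that differ between days. Both assumed values are below it, so that calls with them rest on a smaller spread than estimated.

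Fitted changes near 0 turned in sign. For day 14 against day 7, Pdgfa was -0.01 with library size alone, -0.05 and -0.06 with limma on log2(FPKM + 1) and log2(FPKM + 0.1), and -0.02 with only the libraries compared, and Pdgfc was -0.02 with the latter pseudocount. Pdgfc for day 7 against day 3 was 0 with only the libraries compared, and Pdgfra for day 14 against day 3 was 0.28 without the replicate block. Without d-SMG on day 3 and s-GAG on day 14, chosen after seeing the data, the d-SMG values were -0.03 for Pdgfa, -0.18 for Pdgfb, and 0.02 for Pdgfc, the s-GAG value of Pdgfa -0.42, and its value for all dressings -0.08. Day 7 against day 3 then gave 0.23 for Pdgfa and 0.11 for Pdgfb, day 14 against day 3 gave 0.34 for Pdgfra and -0.08 for Pdgfrb, and day 14 against day 7 gave -0.63 for Pdgfa. The cause was not tested.

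Values that turned in sign when 1 library or 1 day was left out in turn ranged as follows. Alg against control ranged from -0.22 to 0.74 for Pdgfa, -0.46 to 0.27 for Pdgfb, -0.53 to 0.60 for Pdgfc, and -1.25 to 0.48 for Pdgfra. The d-SMG comparison ranged from -0.32 to 1.18 for Pdgfa, -0.36 to 0.54 for Pdgfb, and -0.72 to 0.86 for Pdgfc. Day 14 against day 3 ranged from -1.02 to 0.47 for Pdgfa, -0.36 to 0.49 for Pdgfc, -0.48 to 0.89 for Pdgfd, -0.88 to 0.56 for Pdgfra, and 0 to 0.30 for Pdgfrb. Day 14 against day 7 ranged from -0.74 to 0.54 for Pdgfa and -0.49 to 0.56 for Pdgfc. Day 7 against day 3 ranged from -0.68 to 0.33 for Pdgfa, -0.45 to 0.12 for Pdgfb, and -0.29 to 0.31 for Pdgfc. The s-GAG comparison ranged from -0.60 to 1.36 for Pdgfa. All dressings against control ranged from -0.49 to 0.24 for Pdgfb and -0.74 to 0.38 for Pdgfc.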

Other observations

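The PDGF receptors belong to the class III receptor tyrosine kinases, with Kit, Csf1r, and Flt3. The 4 ligand genes of these and the 3 receptor genes, 7 in all, summed to between 76.83 CPM in s-GAG on day 14 and 313.8 CPM in control on day 14. None was called in any comparison by edgeR, and 4 of the 7 had fitted values below 0 for all dressings, with a median of -0.20. Csf1r, the receptor gene of macrophage colony-stimulating factor, was at -0.95 (SE 0.38, unadjusted p 0.03397, adjusted p 0.9579, edgeR) for all dressings and at -1.48 (SE 0.51) for s-GAG, where its ligand gene Csf1 was at -1.15 (SE 0.50). Flt3, a receptor gene of dendritic cell progenitors, was at 0.94 (SE 0.41, unadjusted p 0.04641, adjusted p 1, edgeR) for d-SMG. Csf1r is itself a gene of macrophages, and the macrophage markers had a median of -1.39 for s-GAG, and their part in this value was not tested.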
